A study of Mus musculus with 10 samples.

Results

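The 10 genes described here serve MHC class I antigen presentation. They are B2m, the light chain of class I molecules, the nonclassical heavy chain genes H2-Q1, H2-T23 and H2-M3, the peptide transporter genes Tap1 and Tap2, the tapasin gene Tapbp, and Psmb8, Psmb9 and Psmb10, the catalytic subunits of the immunoproteasome. Members were found by gene symbol in the array annotation, which listed 12 probe sets for 7 of the 10, among 17097 genes in all. B2m, Tap1 and Tap2 were not analysed here, because no probe set was listed under their symbols. Each gene was represented by its probe set with the highest mean over the 10 arrays.

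Class I molecules display peptides of cytosolic proteins on nearly all nucleated cells, T cells included. The proteasome cuts the proteins, the transporter carries the peptides into the endoplasmic reticulum, and tapasin helps to load them. In immune cells and under interferon gamma, Psmb8, Psmb9 and Psmb10 take the places of the constitutive catalytic subunits Psmb5, Psmb6 and Psmb7. The nonclassical heavy chains are less variable than the classical ones and have more specialised roles.

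RNA of splenic CD4+ T cells from inbred DBA/1 mice was measured on 10 Affymetrix mouse arrays. Naive mice gave CD4+ cells on 2 arrays. Mice injected intraperitoneally with immature dendritic cells (500000 cells on each of days -7, -5 and -3, counted back from death) gave CD4+ cells on 2 arrays, CD49b+ cells on 3 and CD25+ cells on 3. CD4+ cells were enriched with magnetic beads by negative selection, then stained for CD4, CD49b and CD25 and separated by flow cytometry, and each sort pooled several mice. The labels do not say that arrays of a group came from separate pools, so the p-values measure only the spread between these arrays, which may be technical. Values are log2 expression values, on which a difference of 1 is a doubling. Precision is limited by how few arrays there were. The 4 comparisons were those of injected with naive mice in CD4+ cells, which the labels give as the profile of dendritic cell vaccination, of each subset with CD4+ cells of injected mice, and of the subsets with each other. The first 3 share the CD4+ arrays of injected mice.

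The 4 T cell markers measured (Cd4, Cd3e, Cd3d and Cd3g) lay above the array median on every array. Il2ra, which encodes CD25, averaged 8.83 in CD25+, 6.29 in CD49b+ and 4.17 in both CD4+ groups, whereas Itga2, which encodes CD49b, averaged 5.78 in CD49b+ and 5.82 in CD4+ cells of injected mice. Itga2 was higher in CD49b+ than in CD25+ cells, which averaged 5.47 (0.31 ± 0.10; limma, adjusted p = 0.0349). The array median, taken over all probe sets other than controls, lay between 4.61 and 4.65 in the subsets and between 4.79 and 4.81 in CD4+ cells. The 8 myeloid and dendritic cell markers (Itgax, Lyz2, Csf1r, Adgre1, Cd68, Cybb, Flt3 and Xcr1) summed, in linear units, to between 540.9 and 672 in CD4+ cells of naive mice and between 330.4 and 356.4 in those of injected mice. They summed to between 207.4 and 217.7 in CD49b+ and between 261.1 and 285.7 in CD25+ cells. Of the 6 of these markers that were tested, 3 were lower in injected than in naive mice, 5 were lower in CD49b+ cells, and 3 were lower and 1 (Cybb) higher in CD25+ cells, both against CD4+ cells of injected mice. Of all genes, 1.36%, 23.5% and 17.8% were called lower in these 3 comparisons, and 20.8% higher in the last. Lyz2 and Xcr1, both defining markers, averaged between 3.72 and 4.30, under the array medians, in all 4 groups. The 5 natural killer cell markers summed to between 328.6 and 406 in CD4+ cells, between 224 and 279.1 in CD49b+ and between 174.7 and 205.6 in CD25+ cells. Klrd1, Prf1 and Eomes averaged lower in both subsets than in either CD4+ group. Ncr1 went the other way, at 5.12 in CD49b+ and 5.20 in CD25+ against 4.47 in CD4+ cells of injected mice. Klrb1c averaged between 4.53 and 4.58 in all groups. The 3' minus 5' difference of Gapdh, a sign of RNA quality, ran from -0.01 to 0.26 in CD4+ cells, from 0.23 to 0.69 in CD49b+ and from 0.37 to 0.60 in CD25+ cells. That of Actb ran from 0.42 to 0.56 in CD4+ cells, from 0.44 to 0.55 in CD49b+ and from 0.63 to 0.67 in CD25+ cells. The 5 B cell markers measured summed to between 101.2 and 107.7 in CD4+ cells and between 105.8 and 139.9 in the subsets. They did not move together. Cd79b averaged 5.95 in CD25+ and 5.38 in CD49b+, against 4.67 in naive and 4.42 in injected CD4+ cells. Ms4a1, Ighm and Pax5 had lower means in the subsets than in the CD4+ groups, and Cd79a averaged between 4.61 and 4.72 throughout.

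The bases upstream of the genes are shown for the 6 measured members that the RefSeq promoter table (GRCm38.p6) held, since 4 of them were higher in both subsets, where 29.9% (CD49b+) and 20.8% (CD25+) of all genes tested were called higher. Windows of 250 bases before and 50 after the gene start were searched on both strands for the interferon-stimulated response element (ISRE, written as GAAA, any 2 bases and GAAA), the gamma-activated sequence (GAS, TTCNNNGAA) and the NF-kB motif. Capitals mark the matches, and the end of each line lies next to the gene start. Psmb9 is shown over 200 bases, because its window shares 275 of its 300 bases with that of Tap1 on the other strand.
H2-T23 (chr17:36032702-36032951, minus strand): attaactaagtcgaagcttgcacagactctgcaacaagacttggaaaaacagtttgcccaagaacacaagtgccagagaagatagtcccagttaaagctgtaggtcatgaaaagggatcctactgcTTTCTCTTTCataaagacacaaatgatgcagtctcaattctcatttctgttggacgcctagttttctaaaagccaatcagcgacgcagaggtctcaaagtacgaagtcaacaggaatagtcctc
H2-M3 (chr17:37269984-37270233, plus strand): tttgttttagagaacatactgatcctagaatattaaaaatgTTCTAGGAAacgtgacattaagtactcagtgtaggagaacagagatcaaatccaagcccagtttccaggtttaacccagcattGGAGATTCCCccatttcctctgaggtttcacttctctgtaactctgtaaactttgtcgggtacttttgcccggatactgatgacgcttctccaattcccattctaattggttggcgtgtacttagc
Tapbp (chr17:33919228-33919477, plus strand): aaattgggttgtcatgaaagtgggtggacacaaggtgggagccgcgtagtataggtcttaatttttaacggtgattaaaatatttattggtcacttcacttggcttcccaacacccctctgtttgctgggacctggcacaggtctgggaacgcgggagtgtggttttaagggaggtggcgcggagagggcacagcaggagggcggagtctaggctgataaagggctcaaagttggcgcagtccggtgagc
Psmb8 (chr17:34197945-34198194, plus strand): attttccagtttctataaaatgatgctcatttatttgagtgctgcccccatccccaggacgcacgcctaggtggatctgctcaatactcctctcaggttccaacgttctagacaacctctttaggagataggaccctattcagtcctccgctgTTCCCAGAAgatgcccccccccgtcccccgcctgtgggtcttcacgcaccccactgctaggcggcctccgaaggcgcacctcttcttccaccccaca
Psmb9 (chr17:34187331-34187530, minus strand): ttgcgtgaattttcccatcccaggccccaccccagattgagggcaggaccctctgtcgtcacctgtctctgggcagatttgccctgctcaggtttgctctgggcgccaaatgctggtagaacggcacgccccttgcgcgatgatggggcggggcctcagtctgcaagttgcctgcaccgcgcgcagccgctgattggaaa
Psmb10 (chr8:105938393-105938642, minus strand): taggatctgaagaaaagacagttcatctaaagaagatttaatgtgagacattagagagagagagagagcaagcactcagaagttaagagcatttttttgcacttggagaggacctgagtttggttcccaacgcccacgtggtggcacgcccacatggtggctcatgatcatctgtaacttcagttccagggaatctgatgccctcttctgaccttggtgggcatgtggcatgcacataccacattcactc
H2-T23 held an ISRE match on the strand opposite to the one shown, 124 bases upstream. H2-M3 held a GAS match 209 bases upstream and an NF-kB match on the opposite strand 126 bases upstream, and Psmb8 a GAS match 97 bases upstream. These letters were not found in the windows of Tapbp, Psmb9 and Psmb10. Of all 32851 promoter windows, 3.44% held the ISRE, 8.3% the GAS and 8.46% the NF-kB motif. A match is a description of the letters, not evidence of binding.

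H2-Q1, one of the Qa group of class Ib heavy chains, had the widest range of levels among the members. It stood at 6.60 and 7.0 in CD4+ cells of naive mice and at 4.49 and 5.06 in those of injected mice. The 3 CD49b+ arrays gave 3.32, 3.14 and 3.37, and the 3 CD25+ arrays 3.72, 3.69 and 3.50. The groups did not overlap: naive CD4+ arrays were highest, then CD4+ arrays of injected mice, then CD25+ and last CD49b+ arrays. 

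In CD4+ cells, H2-Q1 was -2.03 ± 0.19 on the log2 scale in injected against naive mice (SE, n = 2 and 2; limma, adjusted p = 0.00228), a 4.08-fold lower level and the 4th lowest of 11037 genes. The call was lost when only the 4 arrays compared were fitted (limma, adjusted p = 0.061). The filter on dim genes asked for at least 2 arrays above their array median, which the 2 naive arrays met alone. On replicate 1 of injected mice H2-Q1 lay under the array median. The difference, its p-value and its rank are therefore given as a description, and the 1 member call was also made with no filter.

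H2-Q1 was near the bottom of the subset arrays. It ranked above 1.56% to 6.51% of probe sets on CD49b+ and above 9.94% to 19.8% on CD25+ arrays, against 74.3% and 77.7% on those of naive mice. It passed the filter on dim genes through 2 naive arrays and 1 array of injected mice, so it had to differ from the subsets. Its fitted differences of -1.50 (CD49b+) and -1.14 (CD25+) against CD4+ cells of injected mice, and of -0.36 between the subsets, are therefore given as a description only. Class I heavy chain genes are similar in sequence, and H2-Q1 had a single probe set, whose listed accession was not among the RefSeq transcripts of the gene.

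The level of H2-Q1 followed the sum of the myeloid and dendritic cell markers over the 4 groups. The 2 naive arrays were highest for both, and the 3 CD49b+ arrays were lowest for the summed markers and for H2-Q1. Single markers did not all keep this order between the subsets. Cybb was called lower in CD49b+ than in CD25+ cells (4.94 and 6.52), Itgax was called higher (5.58 and 5.24), and the other tested markers were not called. Within the CD49b+ arrays, replicate 2 had the highest sum (217.7) and the lowest H2-Q1 (3.14). The 5 tested genes outside the members whose profile over the 10 arrays was most like it were Kmo, an enzyme of tryptophan breakdown (Pearson r = 0.993), Ciita, the MHC class II transactivator (0.991), Adgre1, the gene of the macrophage marker F4/80 (0.988), Igsf6 (0.985) and Serpina9 (0.984). These arrays form 4 groups and share their normalization, so each r describes the order of the groups. Fewer cells of a type and less RNA per cell cannot be told apart in bulk samples, and the part of other cells in the level of H2-Q1 was not tested.

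**Figure D1:**
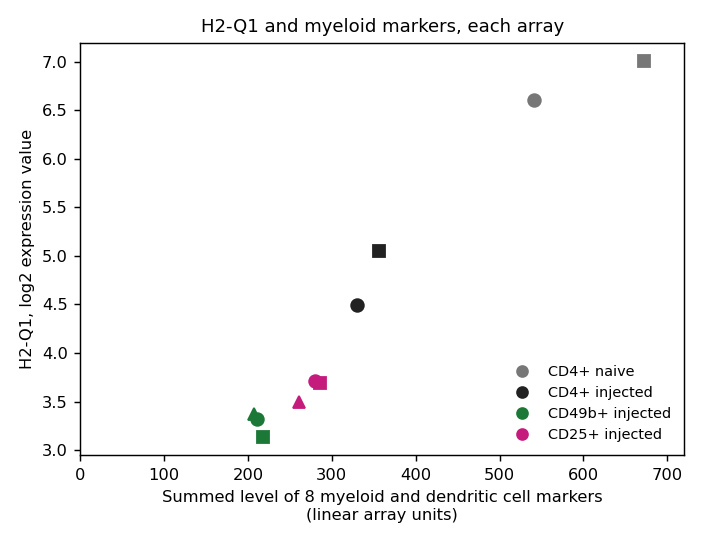
H2-Q1 (log2 expression value, vertical axis) against the summed level of 8 myeloid and dendritic cell markers (linear array units, horizontal axis), a point for each of the 10 arrays, coloured by group and shaped by replicate (circle 1, square 2, triangle 3). Naive arrays lie at 6.60 and 7.0 with sums of 540.9 and 672, and CD49b+ arrays between 3.14 and 3.37 with sums from 207.4 to 217.7.

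H2-T23, which encodes the heavy chain of Qa-1, a ligand of the CD94 and NKG2 receptors, changed far less. Its levels were 11.56 and 11.62 in CD4+ cells of naive mice and 11.36 and 11.45 in those of injected mice. CD49b+ arrays gave 11.67, 11.59 and 11.66, and CD25+ arrays 11.81, 11.66 and 11.73. The subset arrays all lay above those of CD4+ cells of injected mice, and the CD49b+ arrays overlapped with the naive and the CD25+ arrays. H2-T23 was higher than in CD4+ cells of injected mice in CD49b+ (0.24 ± 0.08; limma, adjusted p = 0.028) and in CD25+ cells (0.33 ± 0.08; limma, adjusted p = 0.0086). A second, dimmer probe set gave 0.48 and 0.58 in these comparisons, both called.

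The rise of H2-T23 depended on single arrays. That in CD49b+ cells was lost without CD4+ replicate 1 of injected mice (0.19; limma, adjusted p = 0.165) or 2 (0.0545), and without CD49b+ replicate 1 (0.0674) or 3 (0.0672). That in CD25+ cells was lost without CD4+ replicate 1 of injected mice (0.29; limma, adjusted p = 0.0735). Quantile normalization ended both calls, at 0.10 (adjusted p = 0.378) and 0.18 (adjusted p = 0.121). Against CD4+ cells of naive mice, a comparator chosen after seeing the data here and for the genes that follow, H2-T23 differed by 0.05 in CD49b+ and 0.15 in CD25+ cells, neither called (limma, adjusted p = 0.602 and 0.182). In injected against naive mice it was -0.19 ± 0.09, not called (limma, adjusted p = 0.43).

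H2-M3, whose product presents N-formylated peptides of bacteria and mitochondria, was the one member called different between the subsets, where 29.9% of all genes were called. It stood at 9.44 and 9.45 in CD4+ cells of naive mice and at 9.05 and 9.10 in those of injected mice. CD49b+ arrays gave 9.08, 9.04 and 8.81, and CD25+ arrays 9.32, 9.32 and 9.13. All CD49b+ arrays lay under all CD25+ arrays, with a gap between 9.08 and 9.13, and all naive arrays lay above the other 8.

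H2-M3 was -0.28 ± 0.09 in CD49b+ against CD25+ cells (SE, n = 3 and 3; limma, adjusted p = 0.041). The call was lost without CD49b+ replicate 2 (limma, adjusted p = 0.059) or 3 (-0.20, adjusted p = 0.137), or CD25+ replicate 1 (0.121) or 2 (0.104), and with arrays centred on their medians (0.0651). Fitting only the arrays compared (limma, adjusted p = 0.0897), array weights (0.0611) and testing every probe set (0.0579) also ended the call. In injected against naive mice it was -0.37 ± 0.11 (limma, adjusted p = 0.182) in CD4+ cells. Against CD4+ cells of injected mice it was -0.10 ± 0.10 in CD49b+ cells (95% interval -0.32 to 0.13), which centring turned to 0.095, and 0.19 ± 0.10 in CD25+ cells (-0.04 to 0.41). Neither of these was called. H2-M3 was lower than in CD4+ cells of naive mice in CD49b+ cells (-0.47; limma, adjusted p = 0.00435) and was not called in CD25+ cells (-0.19, adjusted p = 0.188).

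Tapbp, the gene of tapasin, which bridges class I molecules and the transporter, was higher in both subsets than in either CD4+ group. CD4+ arrays gave 10.68 and 10.61 in naive and 10.48 and 10.43 in injected mice. CD49b+ arrays stood at 10.97, 10.79 and 10.90, and CD25+ arrays at 11.14, 11.00 and 11.03. The 6 subset arrays lay above the 4 CD4+ arrays, and the CD25+ arrays above the CD49b+ arrays.

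Tapbp was 0.44 ± 0.08 higher in CD49b+ than in CD4+ cells of injected mice (limma, adjusted p = 0.00193; 1.35-fold), and 0.61 ± 0.08 higher in CD25+ cells (limma, adjusted p = 0.000457; 1.52-fold). Both calls were kept without any single array and under quantile normalization (0.29 and 0.51). With CD4+ cells of naive mice in place of those of injected mice, the differences were 0.24 (limma, adjusted p = 0.0369) and 0.41 (adjusted p = 0.00465). CD49b+ and CD25+ cells differed by -0.17 ± 0.08, not called (95% interval -0.34 to 0.00; limma, adjusted p = 0.121). A second, dimmer probe set gave 0.39 and 0.35 against CD4+ cells of injected mice, neither of them called. The accession listed for neither probe set was among the RefSeq transcripts of Tapbp.

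**Figure D2:**
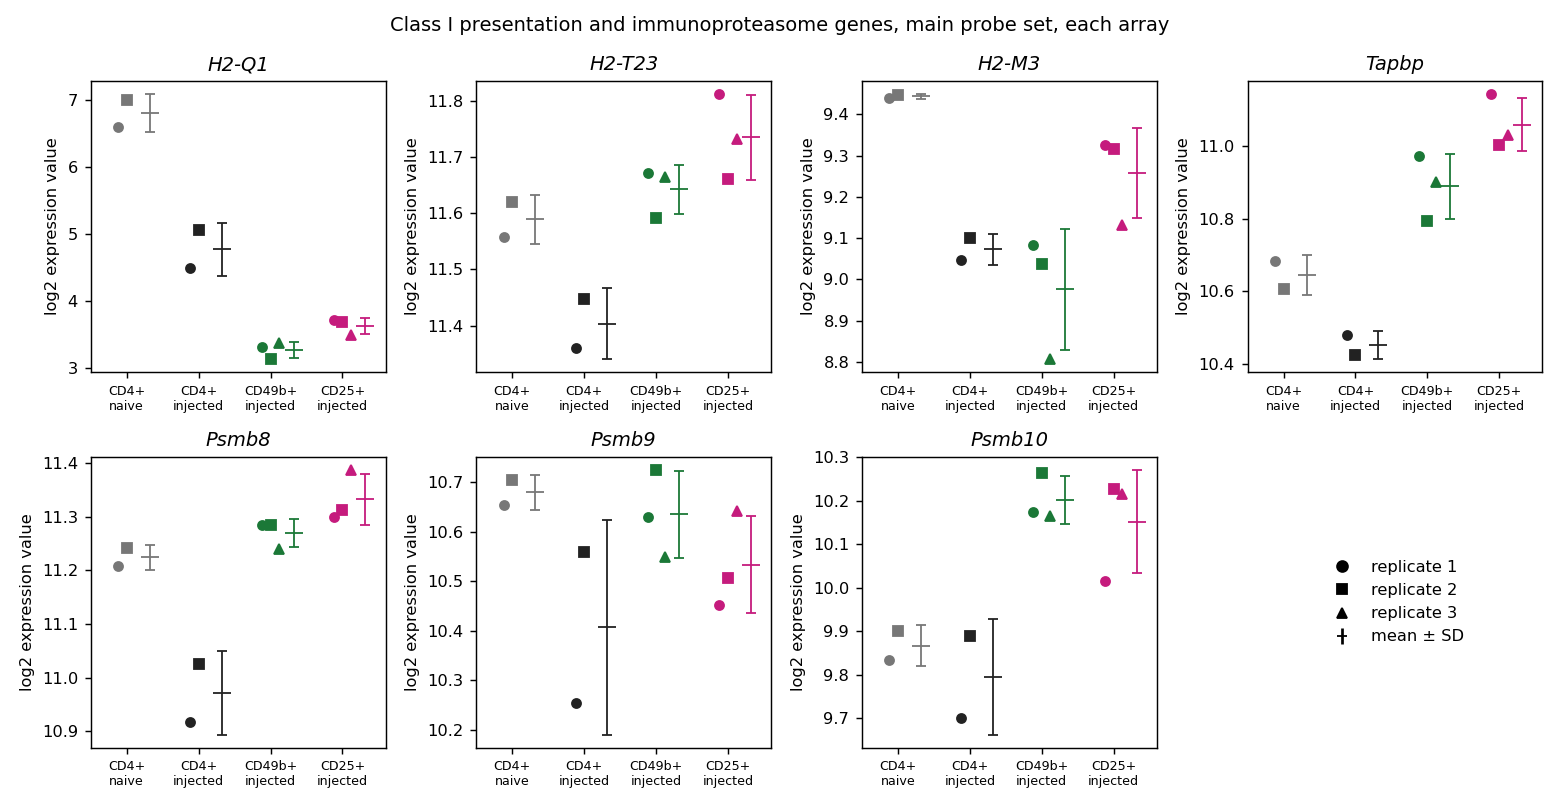
Log2 expression values of the 7 measured genes (a panel each, with its own vertical scale that does not start at 0) on each of the 10 arrays, by group, with the group mean ± SD (n = 2 for CD4+ groups, n = 3 for CD49b+ and CD25+). H2-Q1 ranges from 7.0 to 3.14, while the CD4+ arrays of injected mice hold the lowest values of H2-T23, Tapbp and Psmb8.

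Of the immunoproteasome subunits, 2 of 3 were higher in each subset than in CD4+ cells of injected mice, beside 29.9% of all genes in CD49b+ and 20.8% in CD25+ cells. In injected against naive mice and between the subsets 0 of 3 were called, beside 1.39% and 29.9% of all genes, with 2 and 0 at an unadjusted p under 0.05. Psmb8, the chymotrypsin-like subunit, gave 11.21 and 11.24 in CD4+ cells of naive mice and 10.92 and 11.03 in those of injected mice. CD49b+ arrays gave 11.28, 11.28 and 11.24, and CD25+ arrays 11.30, 11.31 and 11.39. The arrays of injected CD4+ cells stood apart below the other 8, whose values lay between 11.21 and 11.39.

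Psmb8 was 0.30 ± 0.07 higher in CD49b+ (limma, adjusted p = 0.00741) and 0.36 ± 0.07 higher in CD25+ cells (limma, adjusted p = 0.00398) than in CD4+ cells of injected mice. The first call was lost without CD4+ replicate 1 of injected mice (0.24; limma, adjusted p = 0.072) and under quantile normalization (0.16, adjusted p = 0.0919). Against CD4+ cells of naive mice the subsets differed by 0.05 and 0.11, and neither was called (limma, adjusted p = 0.634 and 0.287). The difference of injected from naive mice in CD4+ cells was -0.25 ± 0.08, not called (limma, adjusted p = 0.206). A dimmer probe set of Psmb8 gave 0.14 and 0.20 in the subsets, not called.

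Psmb10, the subunit of trypsin-like type, stood at 9.83 and 9.90 in CD4+ cells of naive mice and at 9.70 and 9.89 in those of injected mice. CD49b+ arrays gave 10.17, 10.26 and 10.16, and CD25+ arrays 10.02, 10.23 and 10.21. All 6 subset arrays were above all 4 CD4+ arrays, and the CD4+ groups overlapped, as did the subsets. Psmb10 was 0.40 ± 0.10 higher in CD49b+ (limma, adjusted p = 0.00564) and 0.36 ± 0.10 higher in CD25+ cells (limma, adjusted p = 0.0151).

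Both calls of Psmb10 were lost without CD4+ replicate 1 of injected mice (0.31, limma adjusted p = 0.0631, and 0.26, adjusted p = 0.133). The call in CD25+ cells was also lost under quantile normalization (0.25, adjusted p = 0.0621) and in the fit of the 5 arrays compared (adjusted p = 0.058). Its differences from CD4+ cells of naive mice were 0.33 (limma, adjusted p = 0.0169) and 0.28 (adjusted p = 0.0439). Between the subsets Psmb10 differed by 0.05 ± 0.09 (95% interval -0.14 to 0.24).

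Psmb9, which takes the place of the caspase-like subunit Psmb6, was not called in any of the 4 comparisons. It gave 10.65 and 10.70 in naive and 10.25 and 10.56 in injected CD4+ cells. CD49b+ arrays gave 10.63, 10.72 and 10.55, and CD25+ arrays 10.45, 10.51 and 10.64. Replicate 1 of injected CD4+ cells was the lowest of the 10 arrays, and the subsets overlapped with each other. The differences were -0.27 ± 0.12 in injected against naive mice (limma, adjusted p = 0.389), 0.23 ± 0.11 in CD49b+ cells (0.099) and 0.13 ± 0.11 in CD25+ cells (0.382) against the CD4+ cells of injected mice, and 0.10 ± 0.10 in CD49b+ against CD25+ cells. Without CD4+ replicate 2 of injected mice the difference in CD49b+ cells was called (0.38; limma, adjusted p = 0.0284), and without replicate 1 that in CD25+ cells was -0.03. Centring the arrays on their medians called Psmb9 higher in both subsets (0.42 and 0.29; limma, adjusted p = 0.00715 and 0.04999).

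The 3 probe sets annotated to Psmb9 gave different calls. The brightest, used above, was the one whose accession was among the RefSeq transcripts of the gene. The other 2 share an accession that was not, so whether they measure Psmb9 is uncertain, and their values are given as those of the annotated probe sets only. When every probe set was tested, the middle one was called higher in CD25+ cells than in those CD4+ arrays of injected mice (0.25 ± 0.08; limma, adjusted p = 0.0497) and gave 0.08 in CD49b+ cells. The dimmest was called lower in CD49b+ (-0.32 ± 0.12; limma, adjusted p = 0.0467) and in CD25+ cells (-0.36 ± 0.12; limma, adjusted p = 0.0404). Its values lay between 4.43 and 5.02, close to the array medians.

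**Figure D3:**
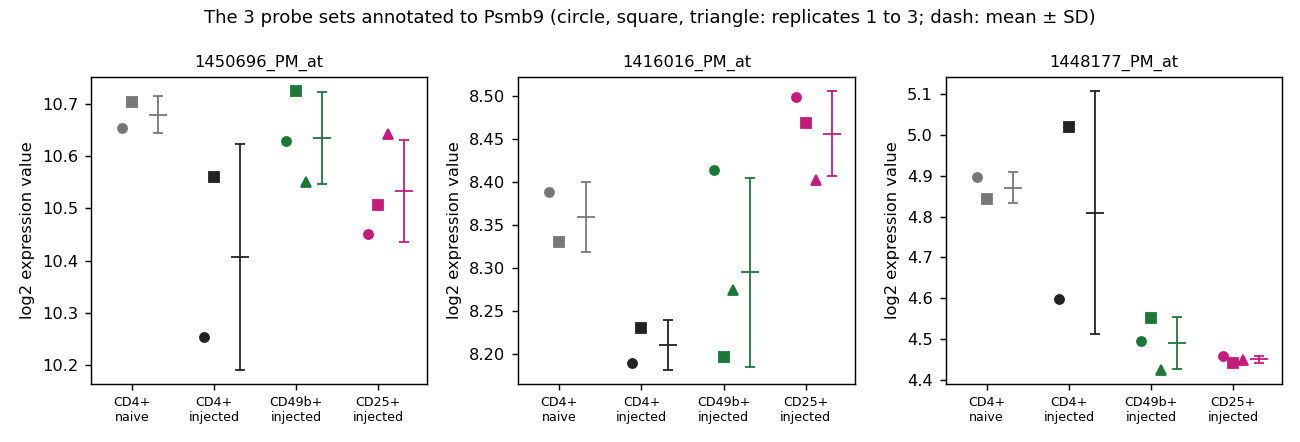
Log2 expression values of the 3 probe sets annotated to Psmb9, from the brightest to the dimmest, on each array by group, with the mean ± SD (n = 2 or 3) and a vertical scale of its own in each panel. The dimmest lies between 4.43 and 5.02, and its subset arrays lie under its CD4+ arrays.

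Of the 7 measured members, 1 was called lower in CD4+ cells of injected against naive mice, namely H2-Q1, where 1.39% of the 11037 genes tested were called (0.0272% higher and 1.36% lower). Because the naive arrays of H2-Q1 met the filter alone, this count is a description. Each of the other 6 had a negative difference, from -0.37 to -0.07, and their median was -0.22 beside -0.03 for all genes. None of the 6 was called in limma, 3 of them had an unadjusted p under 0.05, and the arrays of 5 did not overlap. Arrays that did not overlap were seen in 48.5% of all genes, 18.6% upward and 30.0% downward.

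Against CD4+ cells of injected mice, 4 of the 6 members other than H2-Q1 were higher and 0 lower in both subsets. H2-Q1, whose outcome the filter fixed, is left out of these counts. In CD49b+ cells 53.4% of all genes were called, 29.9% higher and 23.5% lower. In CD25+ cells 38.6% were called, 20.8% higher and 17.8% lower. The arrays of 4 of the 6 lay wholly above the CD4+ arrays in CD49b+ cells, where 70.3% of all genes did not overlap (37.3% upward, 33.0% downward). In CD25+ cells 5 of the 6 lay wholly above, where 58.9% of all genes did not overlap (31.0% upward, 27.9% downward). Without H2-Q1 the median difference of the 6 was 0.27 in CD49b+ and 0.34 in CD25+ cells, beside 0.03 and 0.02 for all genes. These medians share the 2 CD4+ arrays of injected mice, which were the lowest of all arrays in 3 of the 6 genes (H2-T23, Tapbp and Psmb8).

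Single arrays and the scaling moved these counts. Without CD4+ replicate 1 of injected mice, 1 of the 6 was called higher in CD49b+ and 2 in CD25+ cells, in place of 4 and 4. Quantile normalization left 2 higher in each subset. Centring the arrays raised the median of all genes by 0.19 in CD49b+ and 0.16 in CD25+ cells and gave 5 and 6 higher members. The same centring moved the higher share of all calls from 56.0% to 78.3% in CD49b+ and from 53.9% to 78.6% in CD25+ cells. The part of array medians and of the Gapdh and Actb differences in these rises was not tested.

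Between CD49b+ and CD25+ cells 1 of 7 members, H2-M3, was called lower, where 29.9% of all genes were called, 17.5% higher and 12.4% lower. Without H2-Q1 the differences ran from -0.28 for H2-M3 to 0.10 for Psmb9, with a median of -0.08 beside 0.03 for all genes. The arrays of 3 of these 6 lay wholly lower in CD49b+ cells and those of 0 wholly higher, where 41.6% of all genes did not overlap (24.3% upward, 17.3% downward). Without CD49b+ replicate 2 or 3, or CD25+ replicate 1 or 2, 0 members were called in limma, with 1 or 2 at an unadjusted p under 0.05.

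**Figure D4:**
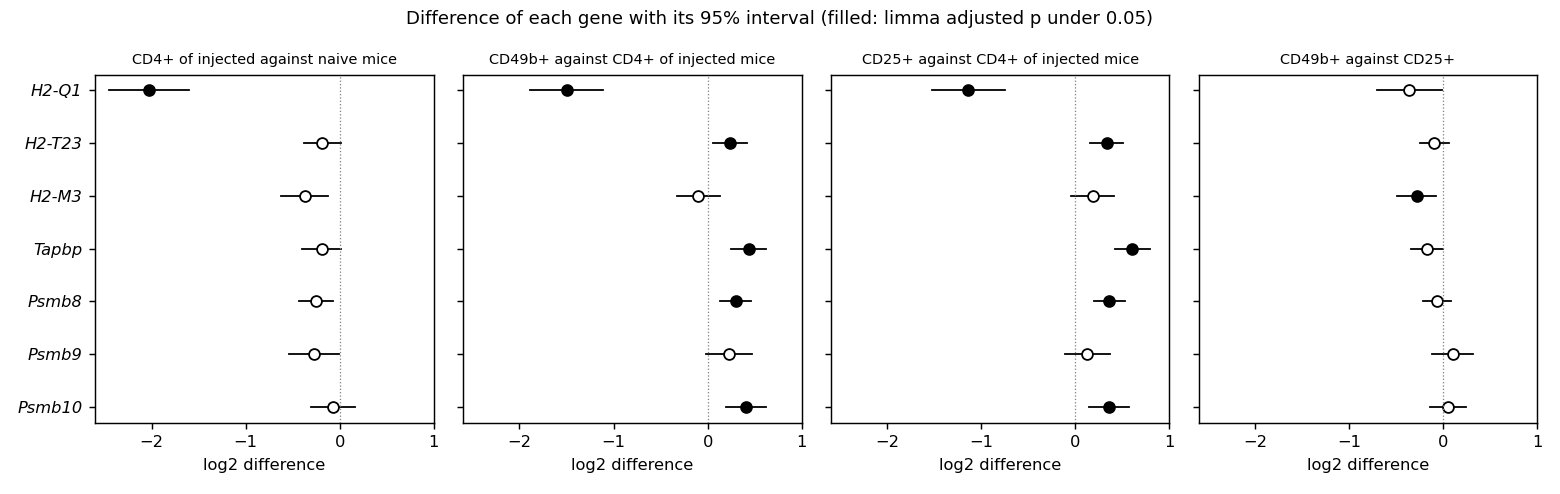
Log2 difference of the 7 measured genes in each of the 4 comparisons (first named group minus second), with its 95% interval from the limma fit, filled where the adjusted p was under 0.05. H2-Q1 lies at -2.03, -1.50 and -1.14 in the first 3 panels, given as a description because of the filter, and the filled points of Tapbp at 0.44 and 0.61.

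The constitutive catalytic subunits that the immunoproteasome subunits replace were set beside them. In CD49b+ against CD4+ cells of injected mice all 3 were called higher, where 29.9% of all genes were called higher. Psmb5, the partner of Psmb8, was 0.82 ± 0.10 higher (limma, adjusted p = 0.000147), Psmb6, the partner of Psmb9, 0.59 ± 0.12 (0.00269), and Psmb7, the partner of Psmb10, 0.55 ± 0.16 (0.0181). Each of these 3 differences was greater than that of its immunoproteasome partner (0.30, 0.23 and 0.40), though the difference within a pair was not tested. The call of Psmb7 was lost without CD4+ replicate 1 of injected mice (limma, adjusted p = 0.108) or CD49b+ replicate 2 (0.0531), and against CD4+ cells of naive mice it gave 0.17 (0.419).

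In CD25+ cells the difference was again greater for Psmb6 than for Psmb9, and smaller for Psmb5 and Psmb7 than for their partners, which was not tested. Psmb6 was 0.42 ± 0.12 higher than in CD4+ cells of injected mice (limma, adjusted p = 0.0201), Psmb5 gave 0.28 ± 0.10 (0.0553) and Psmb7 0.00 ± 0.16 (1), beside 0.36 for Psmb8, 0.13 for Psmb9 and 0.36 for Psmb10. The call of Psmb6 was lost without CD4+ replicate 1 of injected mice (0.31) or CD25+ replicate 2 (limma, adjusted p = 0.0535), and with only the arrays compared (0.0555). Against CD4+ cells of naive mice Psmb6 gave 0.32 and was not called (limma, adjusted p = 0.0701). Psmb5 was called without CD25+ replicate 1 (limma, adjusted p = 0.0172).

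Between the subsets, Psmb5 (0.54 ± 0.09; limma, adjusted p = 0.00173) and Psmb7 (0.55 ± 0.15; adjusted p = 0.0183) were higher in CD49b+ than in CD25+ cells. None of the 3 immunoproteasome subunits was called (0 of 3 also at an unadjusted p under 0.05). Of all genes, 29.9% were called between the subsets, 17.5% higher. The difference of Psmb8 between the subsets had a 95% interval from -0.21 to 0.09, that of Psmb10 from -0.14 to 0.24 and that of Psmb9 from -0.11 to 0.32. The call of Psmb7 was lost without CD49b+ replicate 2 (limma, adjusted p = 0.0637) or CD25+ replicate 1 (0.0729).

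**Figure D5:**
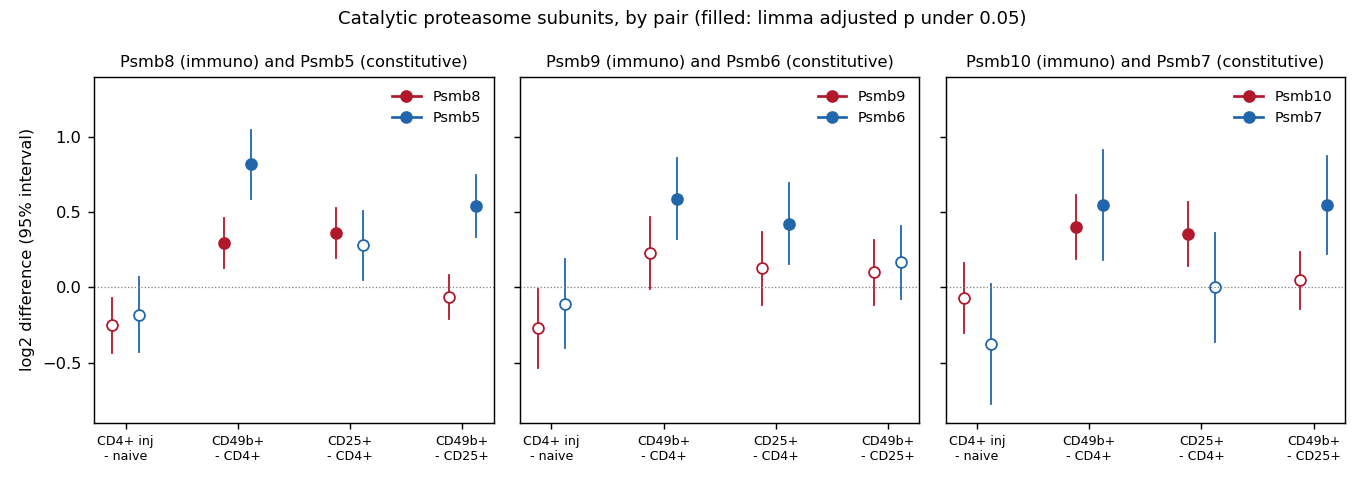
Log2 differences with 95% intervals of the 3 immunoproteasome subunits (red) and their constitutive partners (blue) in the 4 comparisons, filled where the limma adjusted p was under 0.05. In CD49b+ against CD4+ cells Psmb5 lies at 0.82 and Psmb8 at 0.30, and between the subsets Psmb5 lies at 0.54 and Psmb8 at -0.06.

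The rest of the pathway was followed in a list of 43 genes, of which 33 were tested. In CD4+ cells of injected against naive mice 0 were higher and 1 was lower (median -0.08), where 1.39% of all genes were called. In CD49b+ cells 10 were higher and 6 lower, beside 53.4% of all genes called (median 0.05; 8 in all without CD4+ replicate 1 of injected mice), and in CD25+ cells 11 higher and 5 lower, beside 38.6% (median 0.16; 6 in all without that array, and 10 without CD25+ replicate 2). Between the subsets 7 were higher and 8 lower in CD49b+ cells (median -0.02), beside 29.9% of all genes called. With centred arrays the higher and lower genes were 14 and 1 in CD49b+ and 17 and 2 in CD25+ cells, and with quantile normalization 8 and 2 in CD25+ cells.

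Of the 10 class I chain genes of the list that were tested, 1 was called higher and 3 lower in CD49b+ than in CD4+ cells of injected mice. Of all genes, 29.9% were called higher and 23.5% lower there. The lower ones were H2-Q4 (-0.50), H2-T3 (-0.35) and H2-T10 (-0.31). H2-T24 was higher in CD49b+ cells, at 6.44 ± 0.15 (SD, n = 3), than in CD4+ cells of injected mice, at 4.65 ± 0.01 (SD, n = 2), by 1.78 ± 0.11 (limma, adjusted p = 1.66e-06), and than in CD25+ cells by 1.69 ± 0.10 (adjusted p = 2.05e-06). H2-T24 lay under the array medians of 4.80 and 4.81 in CD4+ cells of injected mice. In CD25+ cells it lay between 4.61 and 4.86, close to the array medians, so both differences are against a signal near background. It was the listed gene called in injected against naive mice (-0.59 ± 0.12; limma, adjusted p = 0.0473), a call lost without any one of the 4 arrays (adjusted p from 0.134 to 0.47). H2-Q10, which encodes a secreted heavy chain known from liver, was lower in CD25+ cells, against CD4+ cells of injected mice (-0.88 ± 0.18; limma, adjusted p = 0.00381) and 1.08 ± 0.16 higher in CD49b+ than in CD25+ cells (adjusted p = 0.000772). In CD25+ cells H2-Q10 lay between 4.83 and 5.10, beside array medians of 4.64 to 4.65, so both differences are against a dim signal. The classical chains H2-K1 and H2-D1, chosen after their values were seen, were not called in any comparison, with differences from -0.09 to 0.16. Heavy chain probe sets may also bind transcripts of other heavy chains.

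Among the partners of assembly, Pomp, which encodes the proteasome maturation protein, was higher in CD49b+ cells (0.95 ± 0.12; limma, adjusted p = 0.000121), as was Psme3, a gene of a proteasome activator (0.61 ± 0.14; adjusted p = 0.00487). The call of Psme3 was lost without CD4+ replicate 1 of injected mice (0.47; limma, adjusted p = 0.0548). In CD25+ cells Pomp was called higher too (0.57 ± 0.12; limma, adjusted p = 0.00383), and Psme3 was not called (0.27 ± 0.14). Pdia3, which encodes a thiol oxidoreductase of the loading complex, was lower in both subsets than in CD4+ cells of injected mice. It gave -0.61 ± 0.09 in CD25+ (limma, adjusted p = 0.000487) and -0.41 ± 0.09 in CD49b+ cells (adjusted p = 0.00292). Its group means lay between 5.05 and 5.67, beside array medians between 4.61 and 4.81. Of the 7 loading and trimming genes tested, 3 were called higher and 1 lower in CD49b+ cells. In CD25+ cells 3 were higher and 2 lower. Of all genes, 29.9% and 20.8% were called higher and 23.5% and 17.8% lower. Canx (0.60 and 0.53) and Calr (0.29 and 0.35), chosen after their values were seen, were called higher in CD49b+ and CD25+ cells.

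Of the 7 regulators tested, 3 (Nlrc5, Irf8 and Rfx5) were lower in CD49b+ than in CD25+ cells and 4 (Irf1, Irf2, Rfxap and Rfxank) were not called. Of all genes, 29.9% were called there, 17.5% higher and 12.4% lower. Nlrc5, the transactivator of class I genes, averaged 9.76 ± 0.13 (SD, n = 3) in CD49b+, 10.43 ± 0.16 (SD, n = 3) in CD25+ and 10.14 ± 0.04 (SD, n = 2) in CD4+ cells of injected mice. It was -0.67 ± 0.10 in CD49b+ against CD25+ cells (limma, adjusted p = 0.000809). Irf8, an interferon regulatory factor, was lower in CD49b+ cells (-0.54 ± 0.19; limma, adjusted p = 0.0376) and higher in CD25+ cells (0.81 ± 0.19; adjusted p = 0.00851) than in CD4+ cells of injected mice. Rfx5, a DNA-binding factor of MHC promoters, was higher in both subsets than in CD4+ cells of injected mice. It gave 0.79 ± 0.10 in CD25+ (limma, adjusted p = 0.000311) and 0.40 ± 0.10 in CD49b+ cells (adjusted p = 0.00843). Against CD4+ cells of naive mice it gave 0.29 in CD25+ cells (limma, adjusted p = 0.0531). Its mean was 7.85 in CD49b+ cells and 7.95 in CD4+ cells of naive mice. The first call of Irf8 was lost without CD4+ replicate 2 of injected mice (-0.39; limma, adjusted p = 0.22), CD49b+ replicate 1 (-0.35, adjusted p = 0.0918) or 3 (0.0822), with centred (-0.35, adjusted p = 0.145) or quantile-normalized arrays (0.0818) and with only the arrays compared (0.1), and the second without CD4+ replicate 1 (0.66; adjusted p = 0.0766).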

How the data were processed

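The authors deposited log2 expression values for 45141 probe sets on each of the 10 arrays. The submitters' processing notes name GCRMA, which corrects background, normalizes and summarises probes, and Expression Console 1.2.1 (Affymetrix), without settings. They do not state whether the arrays went through it in a single run, which could shift levels between groups.

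Of 45037 probe sets other than the 104 controls, 28898 had 1 gene symbol in the annotation, 551 had several and 15588 had none. Each of 17097 genes took its brightest probe set, and the 11037 with at least 2 arrays above their array's 50th percentile were tested. A limma fit (3.58.1, R 4.3.3; lmFit and eBayes) of 4 group means to all 10 arrays (6 residual degrees of freedom) gave two-sided p-values, adjusted over all genes tested by the Benjamini-Hochberg method and called under 0.05. The fit was checked on simulated data. The named genes were all members, Psmb5 to Psmb7, in each comparison up to 4 called genes of the wider list with the greatest change, and the 5 genes most like H2-Q1. The same search with Tap1 could not be made. The members, the lists and the rule were chosen with earlier results of these data known. Alternatives were other filters, scalings, priors, probe set rules, array weights, a replicate block, fewer arrays and each array left out. Same-numbered arrays did not deviate together in all pairs (correlations from -0.21 to 0.64, 6 of 13 over 0.1). Those with naive mice ran from -0.21 to 0.08, and those among the groups of injected mice were all positive, from 0.09 to 0.64. Arrays of different numbers among the groups of injected mice ran from -0.53 to 0.45. The main fit did not use the numbers as pairs, and whether same-numbered arrays shared a sort was not tested. No 2 arrays held identical values (0 pairs).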

Additional observations from a re-analysis of the deposited data

Results flagged for a closer look

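Irf8 was called lower in CD49b+ and higher in CD25+ cells against the same CD4+ arrays of injected mice, and the test of the difference between the subsets gave -1.34 ± 0.17 (limma, adjusted p = 0.000295). The arrays lay between 5.08 and 5.88 in CD49b+ and between 6.78 and 6.83 in CD25+ cells. The lower call in CD49b+ cells was lost without CD4+ replicate 2 of injected mice or CD49b+ replicate 1 or 3. No member of the class I set was called in opposite directions in the subsets. No group held enough arrays for a test of outlying arrays.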

How the results depend on the processing

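Of 420 member results under other settings, the comparators below aside, 384 kept direction and side of the threshold, 23 lost a call, 7 gained one and 6 changed sign. Where a value changed, the cause was not tested, except where fewer arrays or genes entered. In injected against naive mice, 153 genes and 1 member were called. This became 82 genes with every probe set tested, 328 with array weights, and 0 genes and 0 members with only the 4 arrays compared in limma (1737 genes and 3 members at an unadjusted p under 0.05). The replicate block gave 377 genes and 2 members, H2-M3 being added at adjusted p = 0.0458, and with the naive numbers crossed, chosen after seeing the data, 526 genes and 2 members. Leaving out single arrays gave 16 to 116 genes. Member counts here include H2-Q1. The wider list, with 1 call, had 0 with no filter, every probe set or only those arrays, and without any one array (7, 7, 6 and 4 to 7 unadjusted), and 2 with array weights or the crossed block. In CD49b+ against CD4+ cells, 5892 genes became 9123 with no filter. Quantile normalization left 3 members of 5. Single arrays left out gave 2 to 5 members and 8 to 15 of the wider list. In CD25+ against CD4+ cells, 4261 genes became 7583 with no filter, 2500 at the 70th percentile, and 2818 to 3970 without single arrays. Members were 3 under quantile normalization, 3 against naive CD4+ cells, and 3 to 5 without single arrays. The wider list was 10 in place of 16 under quantile normalization, with only those arrays, and against naive CD4+ cells, and 6 to 17 without single arrays. Between the subsets the 1 member call was lost (0) with centred arrays, every probe set or array weights (1 each unadjusted), and ranged from 0 to 1 without single arrays. With only the arrays compared the count stayed at 1, but H2-M3 was lost (limma, adjusted p = 0.0897) and H2-Q1 was called instead (0.0357). The replicate block also called H2-M3 higher in CD25+ cells (0.26, adjusted p = 0.0246) and changed no other member call.

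Signs changed for uncalled values. Centring gave H2-M3 0.095 in CD49b+ cells. The mean of its probe sets gave Psmb9 -0.0017 in CD49b+ cells and -0.0064 between the subsets. Against naive CD4+ cells, values were -0.19 for H2-M3, -0.15 for Psmb9 and -0.38 for Psmb7 in CD25+ cells, and -0.045 for Psmb9 in CD49b+ cells. Against all 4 CD4+ arrays, CD25+ cells gave -0.0004 for H2-M3, -0.0097 for Psmb9 and -0.19 for Psmb7, and array weights gave Psmb7 -0.0018. Without single arrays, Psmb9 ran from -0.027 (CD4+ replicate 1 of injected mice) to 0.28 and Psmb7 from -0.11 (CD25+ replicate 2) to 0.085 in CD25+ cells. In injected against naive mice Psmb10 ran from -0.17 to 0.023 and Psmb6 from -0.22 to 0.0088, and between the subsets Psmb10 from -0.020 to 0.086. A single array left in a group took the spread of the remaining groups. Comparators other than CD4+ cells of injected mice were chosen after seeing the data. Signal near background limits H2-Q1 in the subsets.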
